A study of Mus musculus with 32 samples.

Results

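The 5 libraries of macrophages sorted from Rebound gliomas were compared with the 5 libraries of macrophages sorted from Vehicle gliomas, 10 of the 32 libraries of the series, across all genes. Both groups were chosen by the stage and cell type in the labels. Tumours had been started in XFM mice at an age of 5 to 6 weeks by intracranial injection of chicken fibroblasts (the line DF-1) that carry PDGFB, a growth factor chain which activates the receptor PDGFRA. Rebound mice had been given BLZ945, an inhibitor of the kinase of the colony stimulating factor 1 receptor (CSF-1R), and Vehicle mice its vehicle, from a tumour volume of 20 to 40 mm3 and each day until symptoms or an age of 26 weeks. All 32 libraries, those of Vehicle mice too, carry BLZ945 as their agent, and the stage was therefore used to tell the treatments apart; the labels do not define Rebound further. Macrophage libraries (TAM) hold CD11b+ Gr1- cells, a gate that microglia, blood-derived macrophages and other CD11b+ leukocytes can share. Tumour cell libraries (TC) hold PDGFRA+ cells of the same tumours, but for mouse 49692 in place of 49834 at Rebound. The 6 Endpoint TAM libraries, from BLZ945-treated tumours that the labels call dormant, served as a second comparison for genes that differed from Vehicle. Replicates are different mice: 49041, 49059, 49827, 49834 and 49849 at Rebound, and 54359, 54363, 57098, 57682 and 64247 in Vehicle. Values of single libraries are given below in that order of mice.

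Macrophages and microglia depend on CSF-1R, which CSF-1 and IL-34 activate, for survival and proliferation. Macrophages also secrete insulin-like growth factor 1 (IGF1), which acts through the receptor kinase IGF1R and the PI3K pathway on neighbouring cells. The title of the series names IGF1 and IGF1R, and the comparison asks what set the macrophages of Rebound tumours apart from those of tumours that had received vehicle.

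Total counts per TAM library were 15.4 to 19.6 M at Rebound, 9.54 to 15.8 M at Endpoint and 25.6 to 30.4 M in Vehicle (M, mega). Every deposited count in the Rebound and Endpoint libraries was even, while 47.1 to 48.7% of the nonzero counts were even in the Vehicle TAM libraries. This difference in how the files were made follows treatment and cannot be told apart from it, so differences from Endpoint, whose libraries share the even counts, are given for many of the genes named below. Libraries correlated at 0.862 to 0.935 within Rebound, at 0.914 to 0.975 within Vehicle and at 0.84 to 0.936 between the groups (Pearson, log2 CPM, across genes; CPM are counts per mega-count of the library after TMM scaling). The myeloid markers expected in this sort were abundant, with a summed level of 11416 to 18041 CPM at Rebound and 22385 to 34833 CPM in Vehicle; 3 of 10 were called lower (adjusted p under 0.05, edgeR, over all genes), Csf1r, Itgam and Fcgr1.

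Markers of other cells stood higher in some Rebound libraries. The 12 T and NK cell markers summed to 131, 178, 10.7, 14.4 and 47.6 CPM at Rebound, against 5.55 to 18.0 CPM in Vehicle. Mice 49041, 49059 and 49849 were thus above every Vehicle library, and results are also given without those 3 libraries. The joining chain gene of secreted antibody, Igj, reached 343, 137, 3.30, 26.4 and 89.8 CPM at Rebound, against 0 to 6.87 CPM in Vehicle. Igj is on the B and plasma cell list, where 2 of 4 markers tested were called higher and 1 lower. Cd79b of the same list was 10.3 to 38.8 CPM at Rebound and 31.6 to 73.0 CPM in Vehicle. Tumour cell and progenitor markers summed to 44.1 to 378 CPM at Rebound and 32 to 72.7 CPM in Vehicle, with 6 of 9 called higher. Myelinating oligodendrocyte markers summed to 855 to 3250 CPM at Rebound and 373 to 746 CPM in Vehicle, with 7 of 10 called higher. Pericyte and fibroblast markers summed to 49.0 to 277 CPM at Rebound and 36.2 to 75.3 CPM in Vehicle, with 6 of 10 called higher, and Rebound 49827 had no counts of the collagen Col3a1 or of the proteoglycan Dcn. Ependymal and choroid plexus markers summed to 414, 220, 110, 34.8 and 1.44 CPM at Rebound and 1.92 to 5.06 CPM in Vehicle, with 2 of 4 called higher, Ttr and Kl. Most of the sum was Ttr, at 407, 212, 105, 32.2 and 0.888 CPM at Rebound. Endothelial markers summed to 53.2 to 122 CPM at Rebound and 26.6 to 49.5 CPM in Vehicle, with 1 of 5, Flt1, called higher. Neuron markers summed to 19.1 to 41.8 CPM at Rebound and 7.33 to 13.5 CPM in Vehicle, with 1 of 7 called higher. For astrocyte markers the sums were 497 to 1517 CPM at Rebound and 1459 to 2602 CPM in Vehicle, although 4 of 9 were called higher and 1 lower. Neutrophil markers summed to 69.9 to 2260 CPM at Rebound and 23.7 to 558 CPM in Vehicle, and 0 of 8 passed edgeR (1 at an unadjusted p under 0.05). At Endpoint, sums that overlapped Rebound were 697 to 1893 CPM (myelinating oligodendrocyte), 49.3 to 126 CPM (ependymal and choroid plexus) and 25.3 to 58.2 CPM (tumour cell and progenitor). Below every Rebound library were the Endpoint sums of pericyte and fibroblast (17.2 to 26.7 CPM) and endothelial markers (9.27 to 21.7 CPM). In bulk libraries, a change in the share of cells cannot be told apart from a change in RNA per cell.

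**Figure D1:**
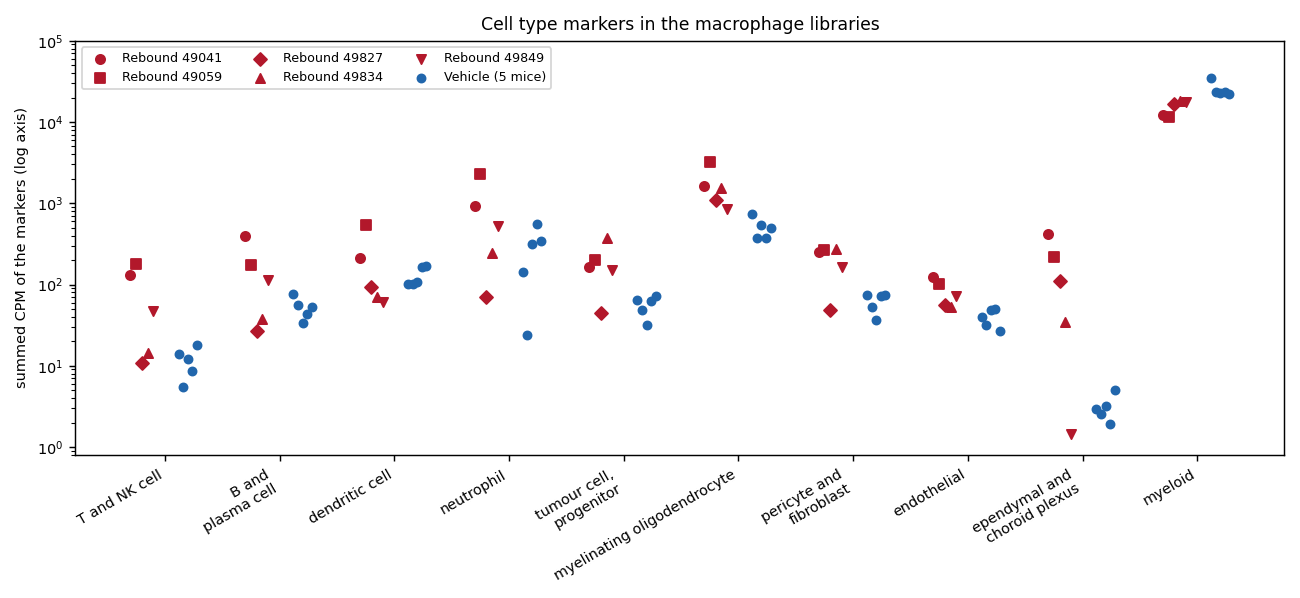
Summed CPM of cell type markers (log axis) in each of the 5 Rebound (red, one symbol per mouse) and 5 Vehicle (blue) TAM libraries, for 10 marker lists. T and NK cell markers lie at 131, 178 and 47.6 CPM in 3 Rebound mice and at 10.7 and 14.4 CPM in the other two, against 5.55 to 18.0 CPM in Vehicle.

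Of 13315 genes tested, 1961 differed between Rebound and Vehicle macrophages (14.7%; edgeR quasi-likelihood test with Benjamini-Hochberg adjusted p under 0.05): 932 were higher at Rebound (7%) and 1029 lower (7.73%). Of the 1961, 1406 were not called between Rebound and Endpoint macrophages. All 5 Rebound values lay above all 5 Vehicle values for 553 genes (4.15%) and below them for 707 (5.31%). Means in Rebound TC libraries were set against the higher of the Rebound and Vehicle TAM means. Of the 932 higher genes, 280 (30%) had a TC mean at least 4 times this TAM mean. This held for 10.9% of all genes tested and 0 of the 1029 lower genes. Another 115 of the higher genes (12.3%) were at least 4 times more abundant in TAM than in TC. So were 337 of the lower genes (32.8%), against 15.5% of all genes. For lower genes the TAM mean is that of Vehicle by selection, so their counts do not set Rebound TAM against Rebound TC. Ccnb1, called lower, averaged 150 CPM in Rebound TC, 10.2 CPM in Rebound TAM and 38.9 CPM in Vehicle TAM. The number of calls was 525 without Rebound 49041, 49059 and 49849. It was 999 when the 10 libraries were fitted without Endpoint, and 605 genes rather than 932 were called higher without Vehicle 64247. Of 120 named genes that were called, 92 kept their call whichever single library was left out, and 58 kept it without those 3 Rebound libraries. With the 10 libraries alone 90 were called. Those not called included C3, Cd74, Fcgr1, Fcgr3, Maf, Pdpk1, Retnla, Rps15, Tgfb2 and Trem2 (adjusted p 0.0518 to 0.0911). They also included Axl, Etv5 and Il18 (0.101 to 0.119).

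**Figure D2:**
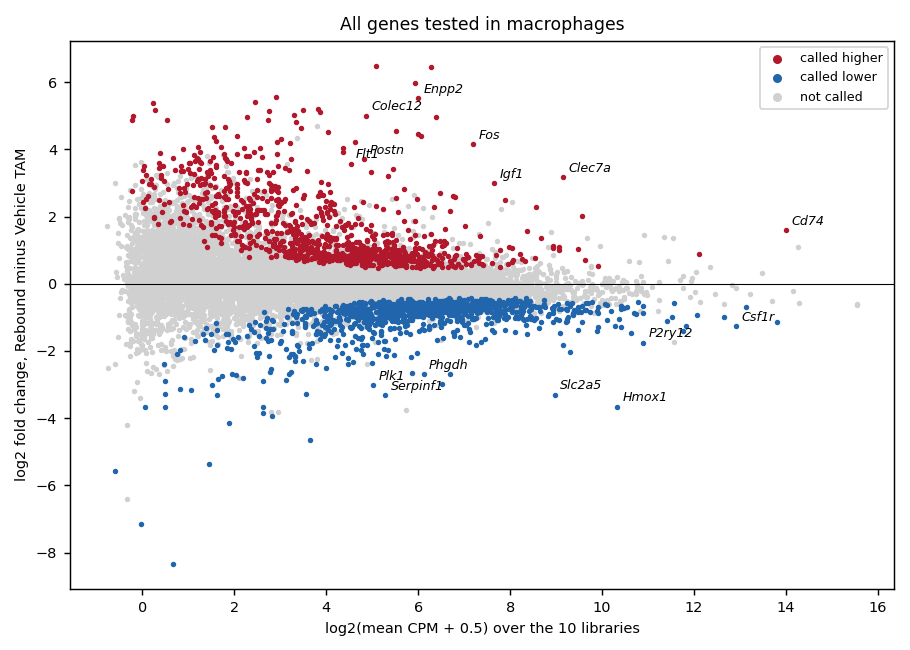
Log2 fold change, Rebound minus Vehicle TAM, of all 13315 genes tested against their mean level, log2(mean CPM + 0.5) over the 10 libraries; red points are the 932 genes called higher, blue points the 1029 called lower and grey points the rest. Hmox1 and Slc2a5 lie at the lower right and Clec7a and Igf1 above them, with Enpp2 at 5.53 near the top.

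Genes of mitosis formed the group with the largest share of members lower at Rebound. Of 36 G2/M genes tested, 27 (75%, against 7.73% of all genes tested) were called lower and 0 higher. All 36 had a negative difference, with a median log2 fold change of -1.64 against 0.02 over all genes tested. Plk1, the polo-like kinase that drives entry into and passage through mitosis, was 5.48, 5.75, 10.2, 6.05 and 7.77 CPM at Rebound, against 16.9, 61.8, 56.6, 41.7 and 107 CPM in Vehicle. No Rebound library reached the lowest Vehicle library, and Plk1 fell by 3.01 on the log2 scale (SE 0.369, adjusted p = 0.000171). Cdk1, the kinase that cyclin B activates, was 26.8, 14.5, 19.1, 24.2 and 23.1 CPM at Rebound, against 37.9, 77.9, 75.1, 53.6 and 93.7 CPM in Vehicle (a log2 fold change of -1.65 with SE 0.265, adjusted p = 0.000919). The groups again did not overlap. Aurka, the centrosomal Aurora kinase, averaged 7.84 ± 4.63 CPM in Rebound libraries, against 39.3 ± 19.6 CPM in Vehicle libraries (SD, n = 5 each; -2.33, adjusted p = 0.00161). Cdca8, a subunit of the chromosomal passenger complex, averaged 12.8 ± 3.45 CPM in Rebound libraries, against 45.0 ± 21.2 CPM in Vehicle libraries (-1.81, adjusted p = 0.00161). For both genes the highest Rebound library was above Vehicle 54359. The anaphase activator Cdc20 (-1.93), cyclin B1, Ccnb1 (-1.93), and topoisomerase Top2a (-1.51) fell too, while the proliferation antigen Mki67 differed by -0.84 without passing the test (adjusted p = 0.191).

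Summed over the 36 genes, the G2/M level was 568, 254, 647, 385 and 433 CPM at Rebound, against 386, 1244, 1873, 1371 and 1998 CPM in Vehicle. Vehicle 54359 thus lay within the Rebound range and the other 4 Vehicle libraries lay above it. The same list summed to 1133 to 1892 CPM in Endpoint macrophages, and 30 of 36 members were lower at Rebound than at Endpoint (5.9% of all genes). Plk1 (-1.90), Cdk1 (-1.37), Aurka (-1.56) and Cdca8 (-1.66) were among the 30. Of 34 G1/S genes, which act in DNA replication before mitosis, 2 were higher and 2 lower (5.88% each, against 7% and 7.73% of all genes tested, median -0.50). The difference between the G2/M and G1/S lists was not tested. The replication clamp Pcna was 30.8 to 57.4 CPM at Rebound and 24.3 to 63.1 CPM in Vehicle (a log2 fold change of -0.09, adjusted p = 0.872). In the TC libraries of the same stages 0 of 36 G2/M genes passed in either direction, with a median difference of 0.04. Among all 13312 genes compared there, 238 were higher and 384 lower, so 0 of 36 is near the share over all genes. Without the 3 Rebound libraries high in T and NK cell markers, the G2/M median was -1.52 and 9 members passed; Plk1, Cdk1, Aurka and Cdca8 were still called, and Ccnb1, Cdc20 and Top2a were not.

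Promoters of these 4 kinase and kinase-complex genes are shown because G2/M genes are known to share 2 promoter elements, the CCAAT box bound by NF-Y and the cell cycle genes homology region, or CHR element, bound by the MuvB complexes DREAM and B-MYB-MuvB. Sequences run from 250 bases before to 50 after the gene start (RefSeq, GRCm38.p6), 5′ to 3′ on the gene's strand, with capitals marking the CCAAT box (CCAAT, or ATTGG when it lies on the other strand) and the CHR element (TTTGAA, which reads TTCAAA when it lies on the other strand, and the related form that starts with TTC and ends with GAA). Plk1 is at chr7:122159185-122159484 on the plus strand, Cdk1 at chr10:69352863-69353162, Aurka at chr2:172370521-172370820 and Cdca8 at chr4:124936868-124937167, these 3 on the minus strand.
Plk1: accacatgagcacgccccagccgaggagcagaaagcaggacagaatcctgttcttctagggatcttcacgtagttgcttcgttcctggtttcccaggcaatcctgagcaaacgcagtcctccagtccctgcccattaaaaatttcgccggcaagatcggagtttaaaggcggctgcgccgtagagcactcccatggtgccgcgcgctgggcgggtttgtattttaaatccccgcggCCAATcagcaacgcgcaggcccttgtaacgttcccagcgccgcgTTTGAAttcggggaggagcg
Cdk1: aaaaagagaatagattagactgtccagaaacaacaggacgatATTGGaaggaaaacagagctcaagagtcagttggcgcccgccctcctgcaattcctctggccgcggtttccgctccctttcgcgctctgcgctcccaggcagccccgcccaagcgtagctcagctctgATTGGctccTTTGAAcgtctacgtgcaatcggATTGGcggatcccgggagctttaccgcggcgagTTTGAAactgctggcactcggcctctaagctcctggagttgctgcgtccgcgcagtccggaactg
Aurka: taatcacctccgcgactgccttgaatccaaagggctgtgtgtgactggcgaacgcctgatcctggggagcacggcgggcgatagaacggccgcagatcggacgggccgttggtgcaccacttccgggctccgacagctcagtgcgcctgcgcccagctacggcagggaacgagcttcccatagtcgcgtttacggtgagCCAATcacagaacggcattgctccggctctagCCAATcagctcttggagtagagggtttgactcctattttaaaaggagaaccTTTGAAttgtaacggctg
Cdca8: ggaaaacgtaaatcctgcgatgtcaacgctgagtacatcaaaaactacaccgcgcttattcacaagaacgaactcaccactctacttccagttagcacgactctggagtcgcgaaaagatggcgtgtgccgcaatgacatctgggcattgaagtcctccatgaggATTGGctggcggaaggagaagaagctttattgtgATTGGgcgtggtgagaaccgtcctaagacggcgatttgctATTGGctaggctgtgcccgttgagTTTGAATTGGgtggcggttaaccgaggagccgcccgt

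Searched on both strands, a CHR element was present in 18 of 21 called G2/M genes with a promoter in the table (85.7%), in 5 of 8 that were not called (62.5%), and in 19.4% of all 27025 promoters of this length. A CCAAT box was present in 17 of the 21 called genes (81%), 7 of the 8 others (87.5%) and 37.9% of all promoters. Both were present in 16 of the 21 called genes (76.2%), 5 of the 8 others (62.5%) and 7.7% of all. In Cdca8 the CHR element overlaps an ATTGG. Among the other called genes lower at Rebound, a CHR element was found in 13.9% of 720 promoters, near the 13.8% of 9508 promoters of genes tested. A match is a description of these letters only.

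Igf1 was higher in Rebound macrophages, with part of its receptor and substrate group. Of 11 IGF genes tested, 4 were called higher and 0 lower (36.4% against 7%; median 1.27), with 2 called without Vehicle 54359 or 54363 and 1, Igf2r, without the 3 Rebound libraries high in T and NK cell markers. Igf1 (chromosome 10, 87858265 to 87937042, plus strand, protein coding, GRCm38/mm10), the secreted ligand, was 486, 271, 329, 355 and 343 CPM at Rebound, against 57.1, 12.6, 31.5, 76.2 and 46.8 CPM in Vehicle. Every Rebound library was at least 3 times above the highest Vehicle library. The log2 fold change was 2.99 (SE 0.833, adjusted p = 0.0272). Against Endpoint macrophages, which averaged 23.2 CPM, it was 3.95 (adjusted p = 0.00403). The call of Igf1 was lost without Rebound 49041 (2.85, adjusted p = 0.0523), Vehicle 54359 (3.09, 0.0548), 54363 (2.74, 0.0605), 57098 (2.89, 0.0557) or 64247 (2.98, 0.0598), and without the 3 Rebound libraries high in T and NK cell markers (2.92, 0.16). With the 10 libraries alone its adjusted p was 0.0032. In TC libraries Igf1 averaged 4.81 CPM at Rebound and 2.46 CPM in Vehicle.

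Igf2r, the mannose 6-phosphate receptor that clears IGF2, was 22.6, 30.5, 13.3, 32.6 and 22.1 CPM at Rebound, against 1.43, 5.47, 3.52, 2.63 and 6.43 CPM in Vehicle. The groups did not overlap, and the log2 fold change was 2.63 (SE 0.536, adjusted p = 0.00448). Igfbp5, an IGF binding protein, averaged 12.7 ± 6.41 CPM in Rebound libraries, against 1.71 ± 1.81 CPM in Vehicle libraries (2.89, adjusted p = 0.00553). Its adjusted p was 0.0521 without the 3 libraries high in T and NK cell markers. Irs1, the adaptor of the insulin and IGF1 receptors, averaged 6.45 CPM at Rebound and 0.818 CPM in Vehicle (2.97, adjusted p = 0.0266), a call lost without Rebound 49834 (2.53, 0.0772) or Vehicle 54359 (2.80, 0.0603), 54363 (2.74, 0.0604) or 57682 (2.74, 0.0512) and without those 3 libraries (3.42, 0.0782). Igf1r itself was 10.4 to 25.3 CPM at Rebound and 6.71 to 12.4 CPM in Vehicle, without passing (0.64, adjusted p = 0.168). Igf2r (2.68) and Irs1 (5.37) were also higher than at Endpoint, and Igfbp5 differed from it by 1.47 without passing (adjusted p = 0.0711).

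**Figure D3:**
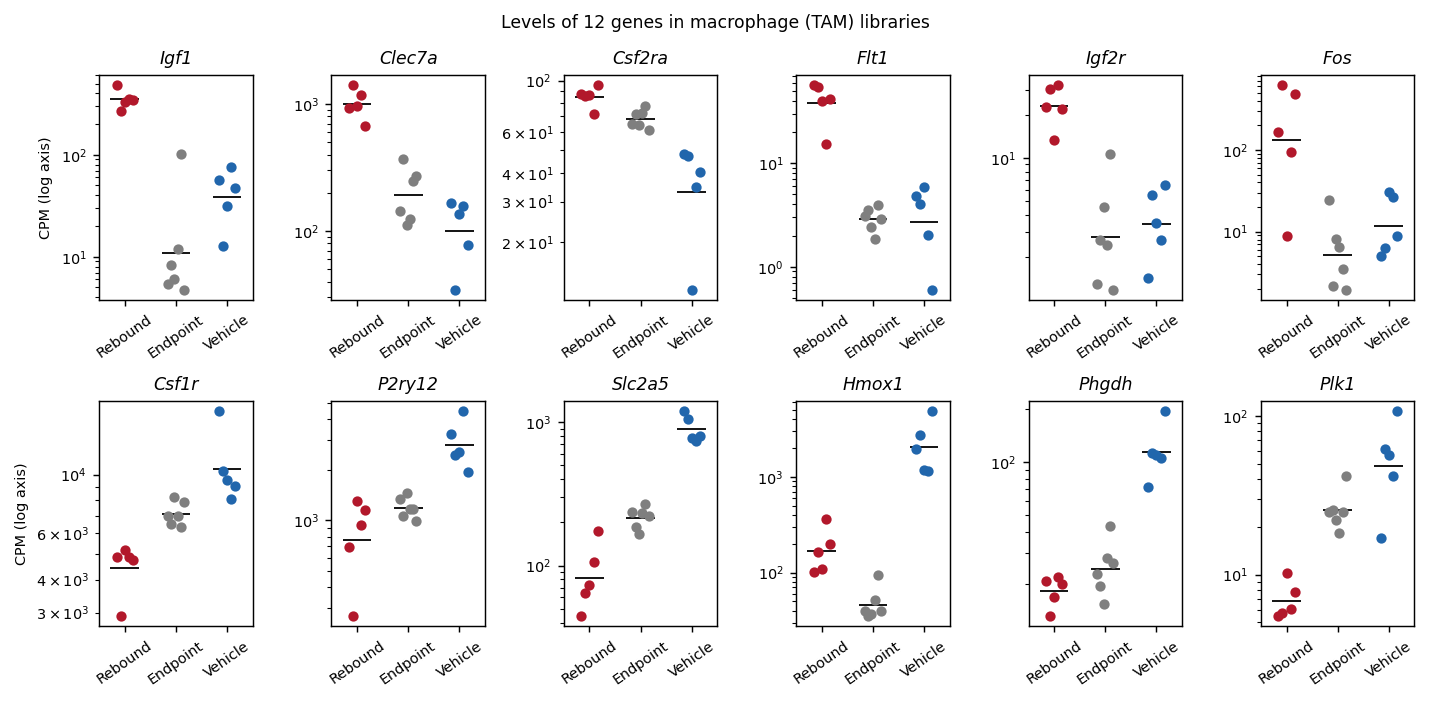
CPM (log axis) of 12 genes in each TAM library at Rebound (red, 5 mice), Endpoint (grey, 6 mice) and in Vehicle (blue, 5 mice); bars are geometric means. Igf1, Clec7a, Csf2ra, Flt1 and Igf2r lie above every Vehicle library in all Rebound mice, Fos in 4 of 5, and Csf1r, P2ry12, Slc2a5, Hmox1, Phgdh and Plk1 below every Vehicle library.

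The receptor that BLZ945 blocks was lower and 2 receptor chains for other myeloid cytokines were higher. Csf1r was 4885, 2914, 5195, 4876 and 4731 CPM at Rebound, against 17411, 10303, 9540, 8108 and 9073 CPM in Vehicle (a log2 fold change of -1.27 with SE 0.216, adjusted p = 0.00136). The Rebound values lay below all Vehicle values, and also below Endpoint, which averaged 7152 CPM (-0.66, adjusted p = 0.0318). Csf2ra, the binding chain of the GM-CSF receptor, was 87.6, 86.0, 86.2, 71.8 and 95.9 CPM at Rebound, against 48.0, 47.1, 12.5, 34.7 and 40.4 CPM in Vehicle (1.23, SE 0.246, adjusted p = 0.00395). Il3ra, the binding chain of the IL-3 receptor, averaged 8.44 ± 2.08 CPM in Rebound libraries, against 1.32 ± 0.838 CPM in Vehicle libraries (2.67, adjusted p = 0.00101). Neither receptor chain differed from Endpoint beyond the test (0.31 for Csf2ra and -0.14 for Il3ra). The ligand Csf1 was 57.8 to 191 CPM at Rebound and 84.8 to 487 CPM in Vehicle (-0.45, adjusted p = 0.522). Over the whole list of 11 receptor and ligand genes, 2 were higher and 1 lower (18.2% and 9.09%, against 7% and 7.73% of all genes tested). Csf2ra had an adjusted p of 0.0702 without the 3 libraries high in T and NK cell markers, and Csf1r and Il3ra were still called.

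Genes of resting microglia were lower. Of 25 homeostatic microglia genes, 14 (56%, against 7.73% of all genes tested) were called lower and 0 higher. The median log2 fold change was -1.07, and 24 of the 25 had a negative difference. Slc2a5, the fructose transporter of microglia, was 44.5, 64.5, 72.7, 106 and 173 CPM at Rebound, against 1195, 1049, 773, 740 and 800 CPM in Vehicle (-3.31, SE 0.299, adjusted p = 6.53e-06). P2ry12, the ADP receptor with which microglial processes sense injury, was 696, 270, 1302, 943 and 1147 CPM at Rebound, against 3281, 2460, 2555, 4467 and 1948 CPM in Vehicle (-1.76, SE 0.314, adjusted p = 0.00187). The groups did not overlap for either gene. Crybb1, a crystallin expressed by microglia (-2.67), Ltc4s, the leukotriene C4 synthase (-1.82), Olfml3, a secreted matrix protein (-1.42), and Tmem119, a microglial membrane protein (-1.47), fell as well. Tmem119 did not pass without the 3 libraries high in T and NK cell markers (-1.45, adjusted p = 0.0667), and 8 of the 25 genes were then called lower. Slc2a5 was also lower than at Endpoint (-1.25, adjusted p = 0.00376), whereas P2ry12 (-0.46), Crybb1 (-0.51), Ltc4s (0.27), Olfml3 (-0.60) and Tmem119 (-0.67) did not pass against Endpoint (adjusted p 0.0537 to 0.465).

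Not all identity genes moved. Cx3cr1, the fractalkine receptor, was 2204 to 5358 CPM at Rebound and 4612 to 6441 CPM in Vehicle (a log2 fold change of -0.53, adjusted p = 0.11; -0.72 and 0.0372 without Rebound 49834). Sall1, the transcription factor that marks microglia among macrophages, was 79.4 to 323 CPM at Rebound and 135 to 323 CPM in Vehicle (-0.35, adjusted p = 0.429). Against Endpoint, 5 of the 25 homeostatic genes were lower (5.9% of all genes) and 0 higher. Of 28 genes of monocyte-derived macrophages 0 passed edgeR in either direction against Vehicle (5 at an unadjusted p under 0.05; median 0.72), and 18 were higher than at Endpoint (11.7% of all genes). The monocyte chemokine receptor Ccr2 was 54.6 to 484 CPM at Rebound and 39.0 to 777 CPM in Vehicle, with a difference of 0.06 that turned negative, -0.42 to -0.10, without Rebound 49041 or 49059 or Vehicle 54359, 54363, 57098 or 64247.

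Disease-associated microglia genes did not move as one group: 3 of 26 were higher and 2 lower (11.5% and 7.69%, against 7% and 7.73% of all genes tested, median 0.27). Clec7a, the beta-glucan receptor dectin-1 (chromosome 6, 129461591 to 129472779, minus strand; a polymorphic pseudogene in GENCODE M21), was 928, 1418, 959, 1171 and 668 CPM at Rebound, against 167, 34.6, 135, 158 and 78.2 CPM in Vehicle (a log2 fold change of 3.17 with SE 0.418, adjusted p = 0.000274). It also exceeded Endpoint (2.29). Trem2, the lipid receptor of this programme, averaged 707 ± 294 CPM in Rebound libraries, against 1483 ± 741 CPM in Vehicle libraries (-1.07, adjusted p = 0.0309), a call lost without Rebound 49041 (-0.95, 0.0746) or 49059 (-0.89, 0.0620) or Vehicle 54359 (-0.75, 0.0994) or 54363 (-1.07, 0.0515). Ctsl, cathepsin L, fell by 0.86. Without the 3 libraries high in T and NK cell markers Trem2 differed by -0.65 (adjusted p = 0.331) and Ctsl by -0.72 (0.149). Against Endpoint, Trem2 differed by -0.08 (adjusted p = 0.881) and Ctsl was higher (0.82). Apoe was 11591 to 38964 CPM at Rebound and 3246 to 29934 CPM in Vehicle (1.10, adjusted p = 0.165), and passed without Vehicle 54359 (1.70, 0.0321). The lipid and matrix genes Lpl (1.35, adjusted p = 0.253), Gpnmb (0.92, 0.639) and Spp1 (-0.23, 0.878) did not pass.

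The 8 higher genes with the smallest p among those at least 4 times more abundant in TAM than in Rebound TC libraries, a rule added after seeing the data, were Flt1, Tmem26, Clec7a, Socs6, Slamf7, Dse, Vcam1 and Btg1. Flt1, the VEGF receptor 1 of endothelium and of some macrophages, was 57.2, 54.8, 39.7, 15.3 and 41.4 CPM at Rebound, against 4.87, 4.04, 5.89, 2.03 and 0.600 CPM in Vehicle (a log2 fold change of 3.58 with SE 0.468, adjusted p = 0.000271). Flt1 is itself on the endothelial marker list. Of the other 8 markers, Cldn5, a claudin of tight junctions, was 1.76, 2.11, 0, 3.35 and 3.11 CPM at Rebound, against 0 to 0.844 CPM in Vehicle, and the receptor Tie1 was 0 to 2.71 CPM at Rebound, against 0.0712 to 0.729 CPM in Vehicle. Pecam1 was 5.64 to 48.1 CPM at Rebound and 15.6 to 35.7 CPM in Vehicle, and Kdr 5.75 to 12.8 CPM at Rebound and 5.87 to 13.2 CPM in Vehicle. Cdh5 was 1.93 to 2.71 CPM at Rebound and 0.256 to 3.02 CPM in Vehicle, and Tek 0 to 2.41 CPM at Rebound and 0 to 1.07 CPM in Vehicle. Erg and Emcn were at 0 to 0.587 CPM at Rebound and 0 to 0.359 CPM in Vehicle. The part of endothelial RNA in the Flt1 difference was not tested. Tmem26, a membrane protein, was 86.6, 45.8, 29.8, 6.44 and 20.8 CPM at Rebound, against 1.71 to 3.48 CPM in Vehicle (4.04, adjusted p = 0.000271). Both were above every Vehicle library in all Rebound mice, and both were higher than at Endpoint (3.81 and 5.42).

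Slamf7, a self-ligand receptor of leukocytes, was 107, 140, 179, 54.2 and 52.0 CPM at Rebound, against 9.28 to 35.3 CPM in Vehicle (a log2 fold change of 2.52, adjusted p = 0.00125). Vcam1, the ligand of the integrin VLA-4, was 284, 447, 590, 248 and 439 CPM at Rebound, against 14.2 to 156 CPM in Vehicle (2.49, adjusted p = 0.00186). Socs6, a suppressor of cytokine signalling, rose by 1.51. These 3 were still called without the 3 Rebound libraries high in T and NK cell markers, while Dse, the dermatan sulfate epimerase (1.14, then 0.74 with an adjusted p of 0.0992), and Btg1, an antiproliferative factor (1.42, then 0.62 with 0.19), were not. Socs6, Slamf7 and Vcam1 differed from Endpoint by 0.34 to 0.63 on the log2 scale, against 1.51 to 2.52 from Vehicle.

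Matrix genes and some genes known from oligodendrocytes, neurons and choroid plexus were among those called higher. Of 28 extracellular matrix genes, 14 (50%, against 7% of all genes tested) were called higher and 1 lower, with a median of 1.77. The summed level of the list went the other way. It was 2977.5 to 4666.6 CPM at Rebound and 5245.3 to 8838.5 CPM in Vehicle, without overlap. The count of rises thus does not describe the summed matrix level. Postn, the matricellular protein periostin, was 104, 47.9, 29.98, 44.7 and 30.6 CPM at Rebound, against 1.84, 4.04, 5.82, 5.02 and 2.87 CPM in Vehicle (a log2 fold change of 3.71 with SE 0.432, adjusted p = 0.000116). The fibrillar collagen Col3a1 was 27.97, 28.7, 0, 32.9 and 14.4 CPM at Rebound, against 0.0889 to 1.5 CPM in Vehicle (5.16, adjusted p = 0.00853). Both genes are on the pericyte and fibroblast marker list, and Rebound 49827 was the lowest Rebound library for both, with no counts of Col3a1 and 29.98 CPM of Postn. Col3a1 did not pass without the 3 libraries high in T and NK cell markers (4.82, adjusted p = 0.0705). Mmp14, the membrane-bound collagenase, averaged 34.9 ± 6.79 CPM in Rebound libraries, against 10.8 ± 3.38 CPM in Vehicle libraries (1.69, adjusted p = 0.000391), and Timp3, an inhibitor of metalloproteinases, rose by 2.45. In TC libraries 12 of the 28 matrix genes were also higher at Rebound than in Vehicle, against 238 of 13312 genes, with a median of 1.65. The number called higher in TAM was 9 without Vehicle 57098 and 7 without the 3 libraries high in T and NK cell markers. Postn (3.20) and Col3a1 (6.84) were also higher than at Endpoint, while Mmp14 (0.63, adjusted p = 0.0601) and Timp3 (0.45, 0.362) did not pass against it.

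Enpp2, the lysophospholipase autotaxin, was 281, 149, 81.8, 84.4 and 21.8 CPM at Rebound, against 1.47 to 5.57 CPM in Vehicle (a log2 fold change of 5.53 with SE 0.673, adjusted p = 0.000271). Enpp2 is also known from choroid plexus, whose marker Ttr, transthyretin, was 407, 212, 105, 32.2 and 0.888 CPM at Rebound, against 0.359 to 3.64 CPM in Vehicle (6.44, adjusted p = 0.00292). Both were highest in 49041 and lowest in 49849, and the part of choroid plexus RNA in the Enpp2 difference was not tested. Cldn11, the claudin of myelin sheaths, was 27.7, 32.6, 2.89, 48.6 and 25.2 CPM at Rebound, against 0.267 to 1.23 CPM in Vehicle (5.10). Rebound 49827 was the lowest Rebound library for Cldn11 and the tumour cell markers. Gpr17, a receptor of oligodendrocyte progenitors, reached its highest value, 101 CPM, in Rebound 49834; it is 1 of the tumour cell and progenitor markers and made up that part of their sum of 378 CPM in this library. Tubb4a, a brain tubulin (3.34), Mtap1b, a microtubule-associated protein (3.42), Kif1a, an axonal kinesin (1.42), Apod, a lipocalin (4.22), and Fam19a1, a secreted brain peptide (3.94), rose too. Cldn11 (4.29), Tubb4a (3.01), Mtap1b (2.26) and Apod (4.33) were also higher than at Endpoint, while Enpp2 (1.44, adjusted p = 0.0711), Kif1a (0.42, 0.122) and Fam19a1 (-0.71, 0.423) did not pass against it. The part of neural and stromal RNA in these rises was not tested.

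Several scavenging and adhesion genes went in opposite directions. Of 20 scavenger and efferocytosis genes, 4 were higher and 4 lower (20% each, against 7% and 7.73% of all genes tested). Colec12, a scavenger receptor of the collectin family, was 35.2, 76.0, 35.6, 61.5 and 70.9 CPM at Rebound, against 0.359, 0.133, 3.02, 3.13 and 1.89 CPM in Vehicle (a log2 fold change of 5.01 with SE 0.984, adjusted p = 0.00501). Colec12 rose in TC libraries too, averaging 73.8 CPM at Rebound and 2.59 CPM in Vehicle (4.83, adjusted p = 0.00881, edgeR). Its TAM difference minus its TC difference was 0.09 (adjusted p = 0.988, edgeR). Stab1, a receptor for modified lipoprotein, averaged 147 ± 54.2 CPM in Rebound libraries, against 401 ± 145 CPM in Vehicle libraries (-1.44, adjusted p = 0.00247), Scarb1, the HDL receptor, fell by 1.04, and Gas6, the bridging ligand of AXL and MERTK, fell by 1.69. Scarb1 and Gas6 had adjusted p of 0.0923 and 0.14 without the 3 libraries high in T and NK cell markers. Among 28 complement, Fc and Toll-like receptor genes, 2 were higher and 4 lower (7.14% and 14.3%, against 7% and 7.73% of all genes tested). The integrin Itgam, the CD11b of the sort, fell by 0.88, and the Fc receptors Fcgr3 (-0.69) and Fcgr1 (-0.66) fell. None of these 3 passed without the 3 libraries high in T and NK cell markers (adjusted p of 0.0564 for Itgam, 0.177 for Fcgr3 and 0.142 for Fcgr1). C3, the central complement protein, averaged 627 ± 395 CPM in Rebound libraries, against 129 ± 101 CPM in Vehicle libraries (2.29, adjusted p = 0.0244), a call lost without Rebound 49041 (1.97, 0.0598) or 49059 (2.07, 0.0516) or Vehicle 54363 (2.08, 0.0599), and 1.20 with an adjusted p of 0.377 without the 3 libraries high in T and NK cell markers. Against Endpoint, Colec12 (4.24), C3 (4.20), Stab1 (0.95), Scarb1 (0.77) and Itgam (0.89) were higher, and Gas6 (0.37), Fcgr3 (0.47) and Fcgr1 (-0.01) did not pass.

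Metabolic genes that differed were mostly lower. Hmox1, heme oxygenase 1, was 102, 163, 108, 365 and 201 CPM at Rebound, against 1953, 2753, 1187, 1150 and 4865 CPM in Vehicle (a log2 fold change of -3.67 with SE 0.468, adjusted p = 0.000271). It was higher than at Endpoint, where it averaged 49.4 CPM (1.93). Of 20 heme and iron genes 5 were lower (25%, against 7.73% of all genes tested) and 0 higher. Among the 5 was Blvrb, a biliverdin reductase (-0.94). The number called lower was 2 without Rebound 49041 and 3 without Rebound 49834 or Vehicle 54359 or 64247. It was 1 without the 3 libraries high in T and NK cell markers. Phgdh, the enzyme of the committed step of serine synthesis, was 20.8, 13.1, 16.8, 21.9 and 20.1 CPM at Rebound, against 72.4, 113, 110, 106 and 196 CPM in Vehicle (-2.69, SE 0.282, adjusted p = 3.31e-05). The other 20 genes of the serine and one-carbon list gave 2 further calls, the serine hydroxymethyltransferase Shmt2 (-0.94, adjusted p = 0.0491) and the thymidylate synthase Tyms (-1.08, 0.0461). Shmt2 lost its call without any 1 of the 10 libraries but Vehicle 57682 (adjusted p 0.0516 to 0.109), and Tyms without any 1 of them but Rebound 49041 and Vehicle 54359 (0.0543 to 0.0983). Without the 3 libraries high in T and NK cell markers Blvrb, Shmt2 and Tyms did not pass (adjusted p 0.168 to 0.195). Hmox1 and Phgdh were below every Vehicle library in all 5 Rebound mice. Phgdh (-0.48, adjusted p = 0.217), Blvrb (0.07), Shmt2 (-0.03) and Tyms (-0.79) did not pass against Endpoint.

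Of 32 glycolysis and hypoxia genes, 7 were lower (21.9%, against 7.73% of all genes tested) and 0 higher (median -0.59). The lower genes included Adm, the hypoxia-induced peptide adrenomedullin (log2 fold change -3.93), the glucose transporter Slc2a1 (-1.01), hexokinase Hk2 (-0.57) and phosphoglucose isomerase Gpi1 (-0.80). Slc2a1 was 77.6, 128, 51.2, 111 and 136 CPM at Rebound, against 209, 233, 131, 187 and 256 CPM in Vehicle; 4 of 5 Rebound values were below all Vehicle values. Ldha, lactate dehydrogenase A, differed by -0.87 without passing (adjusted p = 0.0775). The same list was higher than at Endpoint for 12 of 32 genes and lower for 1, against 11.7% and 5.9% of all genes. Of 38 oxidative phosphorylation genes 5 were lower (13.2%, against 7.73% of all genes tested) and 0 were higher (median -0.21). Among the 5 were the complex III subunit Uqcrc1 (-1.05) and the ATP synthase subunit Atp5a1 (-0.66). Without Vehicle 57098 the counts were 12 glycolysis and 8 oxidative phosphorylation genes, the second also 8 without Vehicle 57682 and 3 without Rebound 49059 or Vehicle 64247. Without the 3 libraries high in T and NK cell markers, 2 glycolysis genes and 1 oxidative phosphorylation gene passed, and Slc2a1 and Uqcrc1 were still called while Adm, Hk2, Gpi1 and Atp5a1 were not (adjusted p 0.0542 to 0.0896). Against Endpoint, Adm (3.98), Slc2a1 (1.45) and Gpi1 (0.68) were higher, and Hk2 (0.26), Uqcrc1 (0.18) and Atp5a1 (-0.02) did not pass. Of 34 lysosome genes 4 were lower (11.8%, against 7.73% of all genes tested). Among them was the asparagine endopeptidase Lgmn (-0.71, then -0.58 with an adjusted p of 0.125 without those 3 libraries).

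Further genes with small p had groups that did not overlap. Serpinf1, pigment epithelium-derived factor, was 5.15, 6.80, 3.71, 12.8 and 6.77 CPM at Rebound, against 90.2, 60.9, 91.6, 42.1 and 64.3 CPM in Vehicle (a log2 fold change of -3.31 with SE 0.3, adjusted p = 6.53e-06). Plod1, a collagen lysyl hydroxylase, averaged 252 ± 64.4 CPM in Rebound libraries, against 885 ± 209 CPM in Vehicle libraries (-1.81, adjusted p = 6.1e-05). Rps6ka1, the ERK-activated kinase RSK1, averaged 237 ± 31.6 CPM in Rebound libraries, against 499 ± 41.9 CPM in Vehicle libraries (-1.08, adjusted p = 0.000171). Numb, an endocytic adaptor that antagonises Notch (-1.57), Tmem63a, an ion channel (-1.74), Grap, an adaptor related to GRB2 (-2.05), and Ccdc22, a subunit of an endosomal recycling complex (-1.497), fell. Gpr165, an orphan receptor (-4.66), and Ecscr, a cell surface sialomucin (-2.99), fell further. Myo5a, a myosin that carries vesicles, rose by 1.63 and Nedd4, a ubiquitin ligase, by 2.299. All of these kept their calls without the 3 Rebound libraries high in T and NK cell markers except Ecscr (adjusted p = 0.0706). Serpinf1 (-2.15) and Gpr165 (-3.08) were also lower than at Endpoint, and Nedd4 (1.88) and Ecscr (2.65) were higher than at Endpoint. Plod1 (0.16), Rps6ka1 (0.23), Numb (0.41), Tmem63a (-0.26), Grap (-0.42), Ccdc22 (-0.0035) and Myo5a (-0.08) did not pass against Endpoint (adjusted p 0.146 to 0.994).

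Antigen presentation and interferon genes gave few calls. Cd74, the invariant chain of MHC class II, was 36844, 44136, 25372, 6132 and 11434 CPM at Rebound, against 7270, 4425, 11822, 11449 and 6286 CPM in Vehicle (a log2 fold change of 1.59 with SE 0.41, adjusted p = 0.016). Rebound 49834 lay within the Vehicle range, as did 49849. The class II chains H2-Ab1 (1.37, adjusted p = 0.0639) and H2-Aa (1.38, 0.106) and the class II activator Ciita (0.74, 0.505) did not pass. Without Rebound 49041, 49059 and 49849 the Cd74 difference was 0.92 (adjusted p = 0.218), and against Endpoint it was 3.48 (4.07e-05). Dendritic cell markers summed to 61.6 to 537 CPM at Rebound, the highest in 49059, and 101 to 171 CPM in Vehicle; the part of dendritic cell RNA was not tested. Of 16 MHC class I genes 0 passed (4 at an unadjusted p under 0.05), and of 38 interferon-stimulated genes 0 passed (4 at an unadjusted p under 0.05), although 34 of the 38 had a negative difference (median -0.38). Irf7, the inducer of type I interferon, was 41.7 to 195 CPM at Rebound and 72.3 to 391 CPM in Vehicle (-1.29, adjusted p = 0.07).

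Of 23 alternative activation genes, 3 were higher and 2 lower (13% and 8.7%, against 7% and 7.73% of all genes tested, median 1.14). Il4ra, the IL-4 receptor chain, was 315, 562, 330, 356 and 408 CPM at Rebound, against 762, 637, 648, 1046 and 2006 CPM in Vehicle (a log2 fold change of -1.37 with SE 0.276, adjusted p = 0.00397), with no overlap. Socs2, a feedback inhibitor of growth hormone and cytokine receptors, rose by 2.03, to an average of 11.3 ± 6.22 CPM at Rebound, against 2.78 ± 0.822 CPM in Vehicle. Arg1, arginase 1, was 1066, 844, 83.7, 28.7 and 179 CPM at Rebound, against 23.9, 15.7, 53.3, 190 and 122 CPM in Vehicle, and did not pass (2.44, adjusted p = 0.0738), though it passed without Rebound 49834 (2.76, 0.0373) or Vehicle 57682 (3.06, 0.0471) and by DESeq2 (2.48, 0.0237). Retnla, a secreted cysteine-rich protein induced by IL-4 and named after its values were seen, was 436, 260, 11.1, 5.15 and 89.1 CPM at Rebound, against 0 to 18.1 CPM in Vehicle (4.97, adjusted p = 0.0266), a call lost without Rebound 49041 (4.16, 0.0609) or Vehicle 54359 (4.74, 0.0626), 57682 (4.94, 0.0506) or 64247 (4.75, 0.0628). Both were highest in 49041 and 49059, 2 of the mice with T and NK cell markers above every Vehicle library, and without the 3 such libraries Arg1 differed by -0.54 and Retnla by 0.67 (adjusted p = 0.756 and 0.835). Mrc1, the mannose receptor, was 15.8 to 98.7 CPM at Rebound and 5.91 to 62.0 CPM in Vehicle (1.14, adjusted p = 0.169).

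Chemokine and inflammatory genes were mixed. Of 27 chemokine and chemokine receptor genes 5 were higher and 1 lower (18.5% and 3.7%, against 7% and 7.73% of all genes tested). Cxcr4, the receptor of CXCL12, was among the higher (1.95, adjusted p = 0.00799). The count of higher chemokine genes was 3 without Rebound 49059 or 49849 or Vehicle 57098 or 57682, 1 without Vehicle 54363 and 2 without 64247. Cxcr4 was 47.6, 82.7, 17.1, 17.9 and 34.5 CPM at Rebound, against 3.91 to 19.6 CPM in Vehicle, and differed by 0.75 (adjusted p = 0.358) without the 3 libraries high in T and NK cell markers. Of 22 inflammatory genes 2 were higher and 2 lower (9.09% each, against 7% and 7.73% of all genes tested). Tnfaip3, the NF-kB inhibitor A20, averaged 124 ± 47.9 CPM in Rebound libraries, against 51.8 ± 14 CPM in Vehicle libraries (1.26, adjusted p = 0.00351), while Il1b (1.03, 0.168) and Tnf (0.11, 0.924) did not pass. Tnfaip3 differed by 0.76 (adjusted p = 0.12) without the 3 libraries high in T and NK cell markers. Among growth factor genes, Tnfsf13b, the B cell survival factor BAFF, averaged 88.1 ± 31.6 CPM in Rebound libraries, against 32.4 ± 17.2 CPM in Vehicle libraries (1.44, adjusted p = 0.00676), and Tgfb2 rose by 2.67. Against Endpoint, Cxcr4 (1.28) and Tnfaip3 (0.94) were higher, Tnfsf13b was lower (-1.01), and Tgfb2 did not pass (-0.42).

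Immediate early genes, which stimulation induces within minutes, were uneven across Rebound mice. Of 33 transcription factors 6 were higher and 1 lower (18.2% and 3.03%, against 7% and 7.73% of all genes tested). Fos was 168, 628, 8.80, 94.7 and 489 CPM at Rebound, against 5.07, 6.35, 30.5, 26.6 and 8.87 CPM in Vehicle (a log2 fold change of 4.16 with SE 1.02, adjusted p = 0.0155). Rebound 49827 was within the Vehicle range and the other 4 were above it. Egr1 averaged 133 ± 104 CPM in Rebound libraries, against 27.6 ± 13.9 CPM in Vehicle libraries (2.27, adjusted p = 0.00794), and Junb, Id3 and Zeb2 rose by 2.13, 2.03 and 0.61. The phosphatase Dusp1 was 80.9, 369, 2.06, 17.6 and 132 CPM at Rebound, against 2.40 to 9.12 CPM in Vehicle (4.45, adjusted p = 0.00764). The highest Fos and Dusp1 values belonged to 49041, 49059 and 49849, and without those libraries Fos differed by 1.73 (adjusted p = 0.366), Egr1 by 1.04 (0.202), Dusp1 by 0.84 (0.479), Junb by 0.96 (0.22) and Zeb2 by 0.54 (0.14), while Id3 was still called (2.15, 0.0429). Maf, a macrophage transcription factor, was 19.4 to 69.7 CPM at Rebound and 69.7 to 86.6 CPM in Vehicle (-1.06, adjusted p = 0.0182). Fos (5.16), Egr1 (3.97), Dusp1 (4.62), Junb (1.96) and Id3 (1.91) were also higher than at Endpoint, and Zeb2 (0.39) and Maf (0.28) did not pass against it.

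Signalling genes moved in both directions. Of 28 PI3K, AKT and mTOR genes, 3 were higher and 4 lower (10.7% and 14.3%, against 7% and 7.73% of all genes tested; median 0.04): Inpp5d, the phosphatase SHIP1, fell by 0.84 and Pik3ap1, an adaptor of PI3K, by 0.73, whereas Pdpk1, the kinase PDK1, rose by 0.52, a call lost without Vehicle 64247 (0.43, adjusted p = 0.0617) and without the 3 libraries high in T and NK cell markers (0.38, 0.304). Of 11 NFAT and calcineurin genes 1 was higher and 1 lower (9.09% each, against 7% and 7.73% of all genes tested). The higher was the calcineurin subunit Ppp3ca (0.69) and the lower the calcineurin inhibitor Rcan1 (-1.42, adjusted p = 0.00409). Ppp3ca did not pass without those 3 libraries (0.67, adjusted p = 0.142). Against Endpoint, Pik3ap1 was higher (0.96) and Inpp5d (-0.26), Pdpk1 (0.19), Ppp3ca (-0.05) and Rcan1 (-0.42) did not pass. Of 13 ERK feedback genes, Egr1 was higher and 2 were lower (7.69% and 15.4%, against 7% and 7.73% of all genes tested). The ERK phosphatase Dusp6 was 222, 710, 333, 226 and 339 CPM at Rebound, against 934, 842, 892, 899 and 500 CPM in Vehicle (-1.15, adjusted p = 0.0113), and exceeded Endpoint by 2.53. Of 40 ribosomal protein genes 1 passed, Rps15 (-0.66), a call lost without Rebound 49041, 49059, 49827 or 49849 or Vehicle 54359, 54363 or 64247 (adjusted p 0.0505 to 0.0856) and without the 3 libraries high in T and NK cell markers (0.241); copies of these genes elsewhere in the genome make their counts uncertain.

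**Figure D4:**
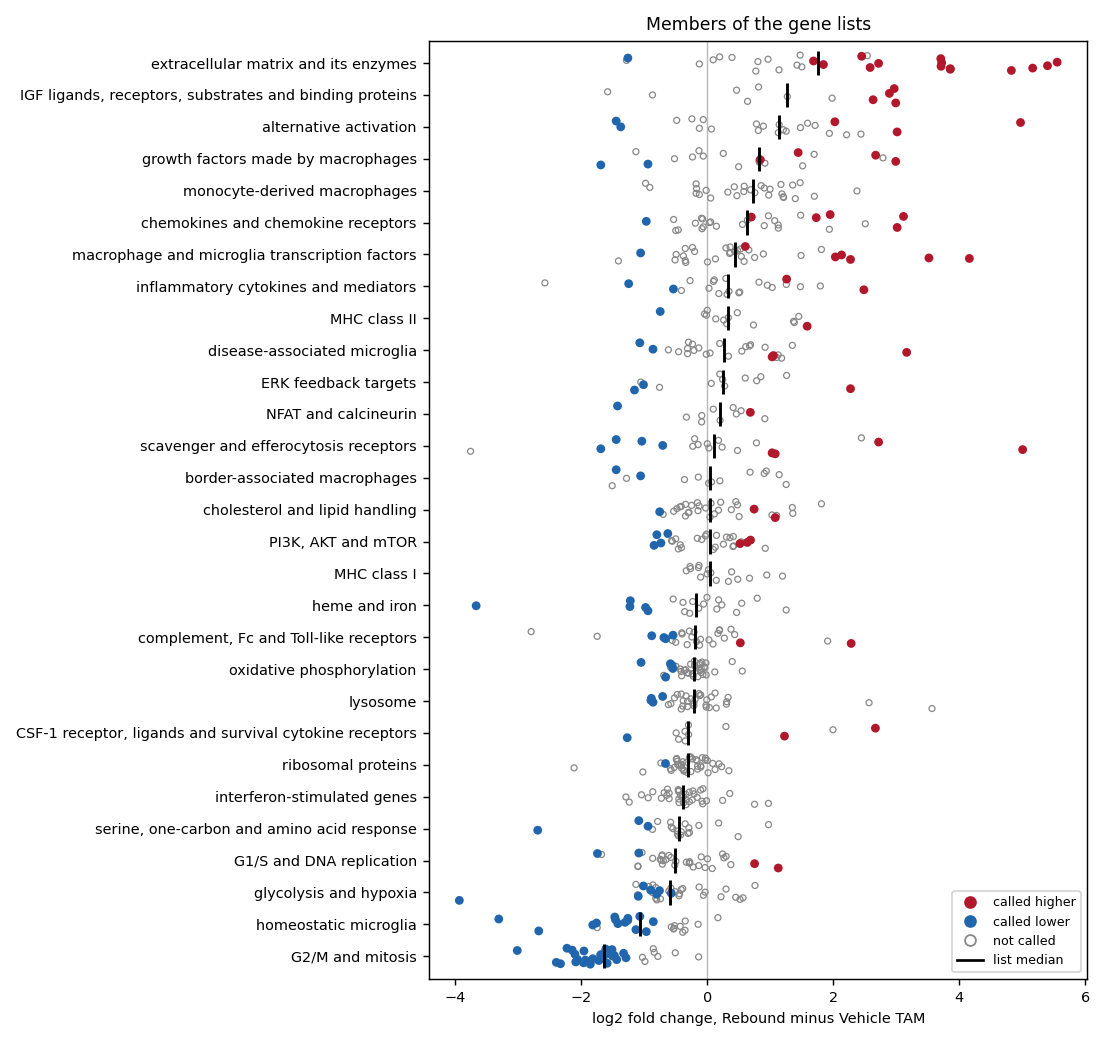
Log2 fold change, Rebound minus Vehicle TAM, of each tested member of 29 gene lists, ordered by the list median (black bar); red points were called higher, blue points lower and open points neither. G2/M genes (median -1.64) and homeostatic microglia genes (-1.07) lie furthest to the left, and matrix (1.77) and IGF genes (1.27) furthest to the right.

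Rebound macrophages were also set against Endpoint macrophages: 1552 genes were higher (11.7%) and 785 lower (5.9%). Of the genes called against both, 259 were higher than in Vehicle and than at Endpoint, 144 were lower than in both, 43 were higher than in Vehicle and lower than at Endpoint, and 109 the reverse; the 2 comparisons share the Rebound libraries. Igf1, Clec7a, Igf2r, Flt1 and Tmem26 were in the first of these groups and Plk1, Cdk1, Csf1r and Serpinf1 in the second. Hmox1, Il4ra and Dusp6 were lower than in Vehicle and higher than at Endpoint.

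The difference between Rebound and Vehicle was compared between the 2 sorts by an interaction term in a fit of all 32 libraries. Of 15668 genes, 81 passed, 50 with a more positive difference in TAM (0.319%) and 31 with a more negative one (0.198%). With the mouse as a block, in the 15 mice with both libraries, 4 passed, all among the 81. These were named after their values were seen: Serpinf1, Phgdh, Prkcz and Scd1. Serpinf1 fell by 3.31 in macrophages and was higher by 2.78 in tumour cells (interaction -6.19, adjusted p = 2.04e-05; -6.01 and 0.00123 with the block). Phgdh fell by 2.69 in macrophages, against a difference of -0.49 in tumour cells (interaction -2.28, adjusted p = 0.00139; -2.28 and 0.0261 with the block). Plk1 differed by -3.01 in macrophages and 0.06 in tumour cells (interaction -3.15, adjusted p = 0.03), without passing with the block (-2.57, 0.314). Igf1 did not pass the interaction (1.92, adjusted p = 0.424). Without Rebound 49834 or 49059 the interaction gave 36 and 51 genes.

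**Figure D5:**
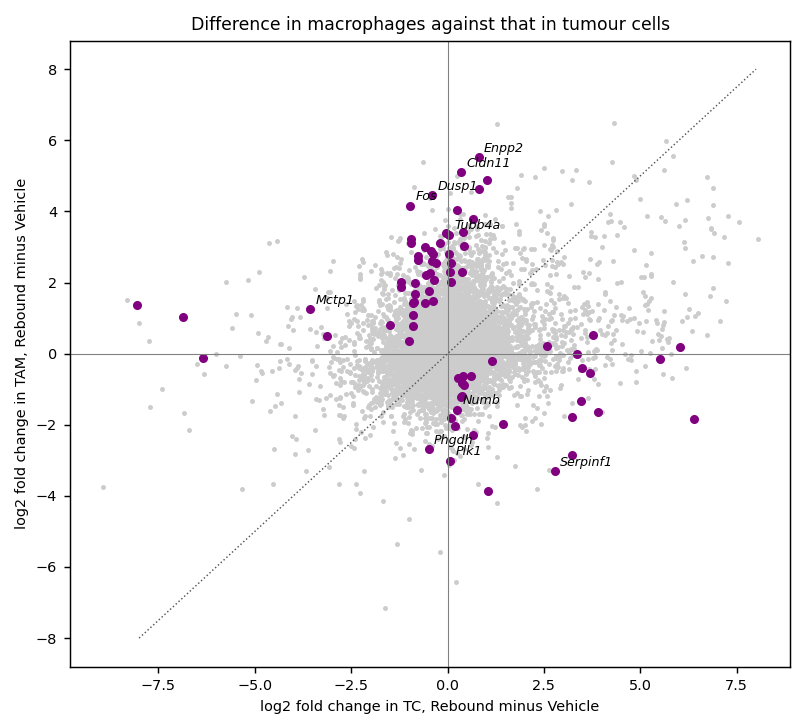
Log2 fold change, Rebound minus Vehicle, in TAM (vertical axis) and TC (horizontal axis) for the genes tested in TAM. Purple points passed the interaction term and the dotted line marks equal differences. The axes come from separate fits, so the distance from the line is not exactly the interaction. Serpinf1 lies at -3.31 in TAM and 2.78 in TC, and Plk1 at -3.01 in TAM and 0.06 in TC.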

How the data were processed

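RNA from sorted cells of mouse gliomas had been made into SMART-Seq libraries, which do not keep strand, and sequenced as paired reads, per the labels' protocols. Reads had been aligned to mm10 with STAR 2.3.0e and handled with SAMtools, per the submitters' processing notes; which program counted reads, and over which annotation, is not given in the sources used here. The authors deposited raw counts per gene symbol, not normalized. The 16 TAM libraries were fitted together with edgeR 4.0.16 in R 4.3.3 (filterByExpr, TMM, robust quasi-likelihood F test, two-sided), and p-values were Benjamini-Hochberg adjusted over 13315 genes, with a threshold of 0.05. CPM are counts scaled to a common library size after TMM, and fold changes are log2, Rebound minus Vehicle unless stated. The test was also run on simulated data, whose outcome is not given here and is not used as evidence for the calls.

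The interaction was fitted on all 32 libraries. TAM and TC libraries of the same mouse are paired by the labels in 15 mice (correlation of their deviations 0.011 to 0.337, above 0.1 in 5 of 15 pairs), so the interaction is also given with the mouse as a block; Rebound and Vehicle share no mouse. Alternatives were DESeq2 1.42.0, limma-voom (limma 3.58.1), other scaling and filters, the 10 libraries alone, halved even counts and leaving out libraries. Leaving out the 3 Rebound libraries high in T and NK cell markers was chosen after seeing the data.

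Named genes were the 12 higher and 12 lower called genes with the smallest p and the 8 with the largest fold in each direction, groups not overlapping and at least 20 CPM, then up to 4 called members per list with the smallest p and set anchor genes. The comparison, lists and markers were chosen with earlier results of these data known. Gene symbols were matched to GENCODE M21 for 20953 of 23337 symbols. Some genes that meet the rule are not reported here.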

Additional observations from a re-analysis of the deposited data

Results flagged for a closer look

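In 15 of 298 groups of 5 libraries examined, 1 library lay far from the other 4; chance gives about 1 in 20 groups. Among Rebound libraries, mouse 49827 was low for Cldn11 (2.89 CPM), Col3a1 (0 CPM), Numb (36.9 CPM) and Uqcrc1 (162 CPM). Mouse 49059 was low for Csf1r (2914 CPM) and high for Insig1, a regulator of sterol synthesis (32.9 CPM, against 16.9 to 19.6 CPM in the other 4). Mouse 49834 was low for Flt1 (15.3 CPM) and 49849 high for Gpnmb (465 CPM). Among Vehicle libraries, 54359 was low for Ccnb1 (7.23 CPM) and Pcna (24.3 CPM) and high for Grn, progranulin (8238 CPM). Mouse 57098 was low for Csf2ra (12.5 CPM) and Ecscr (83.9 CPM), and 64247 was low for B2m (1626 CPM) and Dusp6 (500.2 CPM).

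The difference between Rebound and Vehicle itself differed between macrophages and tumour cells for 14 of the genes named by rule or examined here (interaction term, edgeR, adjusted p under 0.05). On the log2 scale, TAM difference minus TC difference, it was more positive in macrophages for Fos (5.05), Dusp1 (4.77), Mctp1 (4.72), Enpp2 (4.66), Cldn11 (4.66), Tubb4a (3.21), Mtap1b (2.91), Kif1a (1.91) and Nedd4 (1.83). It was more negative for Serpinf1 (-6.19), Plk1 (-3.15), Phgdh (-2.28), Plod1 (-1.995) and Numb (-1.92). Cldn11 averaged 222 CPM in Rebound TC libraries and 27.4 CPM in Rebound TAM libraries, and Enpp2 averaged 623 and 124 CPM. The part of RNA from TC or other neural cells in the more positive differences was not tested. Mctp1, a calcium-binding membrane protein chosen after its values were seen, differed by 1.25 in macrophages and by -3.56 in tumour cells. With the mouse as a block, Serpinf1 and Phgdh passed and the other 12 of the 14 genes did not. Prkcz (2.94, adjusted p = 0.000914) and Scd1 (3.13, 0.00482), chosen for passing with the block, also passed (0.0307 and 0.0458 with it).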

How the results depend on the processing

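Of 1961 calls, 999 were made with the 10 libraries alone (976 shared) and 525 without the 3 Rebound libraries high in T and NK cell markers (463 shared). The 932 higher genes became 1400 by DESeq2, 485 with the 10 libraries and 293 without those 3; leaving out single libraries gave 605 to 951. The 1029 lower genes became 499 with no TMM factor, 514 with the 10 libraries and 232 without those 3, with 776 to 1204 for single libraries. With no TMM factor the median of all genes was 0.202 and 71.6% of calls were higher, against 47.5%; with no filter 39.9% were. Halving the even counts gave 2063 calls. The paired fit, with the mouse as a replicate block in the 15 mice with both libraries, gave 4 interaction genes in place of 81. That fit also left out the libraries of mice 49834 and 49692, so the fall cannot be credited to the block alone. Single libraries left out gave 36 to 82 interaction genes, and halved counts 106. Rebound against Endpoint stayed within 1.5 times its count.

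Signs turned for some values that had not passed. Without the 3 libraries, medians turned to -0.202 (chemokines) and -0.105 (macrophage and microglia transcription factors), and fold changes to -0.538 (Arg1), 0.0468 (C1qa), -0.107 (Ccnd1), -1.55 (Ccr2), -0.0760 (Ciita), -0.516 (Itga4), 0.0405 (Sall1) and -0.718 (Tnf). With no TMM factor the heme median was 0.0138, C1qa 0.109, Pcna 0.0577 and Spp1 0.00147. By limma-voom C1qa was 0.00962, Ccnd1 -0.192 and Tnf -0.513. Single libraries left out spanned 0 with -0.315 to 0.0905 for C1qa, -0.216 to 0.317 for Ccnd1, -0.422 to 1.52 for Ccr2, -0.663 to 0.198 for Csf1, -2.66 to 0.278 for Lyve1, -0.270 to 0.0133 for Pcna, -0.812 to 0.0323 for Spp1 and -1.12 to 0.467 for Tnf. The causes were not tested.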
